A study of Homo sapiens with 24 samples.

Results

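Human chromosome 19 carries the densest collection of C2H2 zinc finger genes of the genome. The 231 genes described here are those with a symbol of ZNF and a number (an added letter allowed, pseudogene symbols left out) that lie on chromosome 19 and reached 0.5 CPM (counts scaled to a common library total) in at least 3 libraries. They were 231 of 18451 genes tested and of 60605 genes in the tables. Another 16 chromosome 19 genes with such symbols stayed under the filter. Nearest inside it were ZNF534, at that level in 3 libraries, and ZNF439, in 6. Nearest outside was ZNF135, in 2 libraries, with a highest value of 0.76 CPM. In all, 216 of the 231 reached the level in all 24 libraries, and 1 passed through the SFPQ siRNA libraries alone, so the filter decided little.

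Each such protein reads DNA with a row of fingers, each finger contacting a few bases. Most of the chromosome 19 proteins also carry a KRAB domain, which recruits the corepressor TRIM28. TRIM28 in turn brings SETDB1 and heterochromatin proteins, and many of these proteins hold retrotransposons silent. The genes arose by tandem duplication and therefore sit in rows of close relatives.

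The RNA came from SBC-3, an established line from a small cell lung cancer. Cells were reverse-transfected at 10 nM with either siRNAs (small interfering RNAs) or ASOs (antisense oligonucleotides), and poly(A) RNA was sequenced at 72 h. The siRNA arm holds siCtrl, siSFPQ-2, siSFPQ-3, siNONO-3 and siNONO-4, and the ASO arm holds ASO-Ctrl, ASO-NEAT1-1047 and ASO-NEAT1-1473, each with 3 libraries. SFPQ and NONO are related RNA-binding proteins of paraspeckles, the nuclear bodies that form on the long noncoding RNA NEAT1. All groups are unmodified cells of a single line, and the labels leave unsaid whether replicates were grown apart, so every p-value reflects spread among these libraries alone.

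Totals ran from 4243196 counts, in an siSFPQ-2 library, to 14886353. SFPQ RNA stood at 17.2% of siCtrl with its siRNAs and NONO RNA at 17.4% with its own (exact two-sided permutation tests, p = 0.0238 each, the smallest that these group sizes allow). NEAT1 RNA was at 83.9% of ASO-Ctrl (exact permutation p = 0.381), so the counts do not show the knockdown and the ASO groups are called here by their labels. Mitochondrial genes took 8.21% ± 0.76 of counts in siCtrl (SD, n = 3), 10.92% ± 1.06 with siSFPQ-2 and 9.88% ± 0.27 with siSFPQ-3. Of 10 neuroendocrine markers 3 reached 1 CPM in siCtrl, and INSM1 was at 0 CPM, whereas YAP1 was at 409 CPM. The summed neuroendocrine markers were 25.3 CPM in siCtrl, 72.6 with siSFPQ-2 and 40.6 with siSFPQ-3, and the 3 epithelial markers 109, 412 and 420 CPM. SYP (17.2, 64.8 and 36.9 CPM) and KRT8 (109, 410 and 416 CPM) made up most of these sums, while NEUROD1 stood at 4.64, 2.36 and 1.35 CPM. The summed blood and endothelial markers stayed at or under 1.29 and 1.75 CPM in every group. The 3 fibroblast markers summed to 13.7 CPM in siCtrl, 33.0 with siNONO-4 and 25.9 in ASO-Ctrl. COL1A1 made up most of that, at 13.6, 32.9 and 25.7 CPM. Whether the shifts in mitochondrial share, depth and markers have a part in the results below was not tested.

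The genes lay in order as rows. With a new cluster begun wherever neighbouring starts were more than 1 Mb apart, 213 of the 231 fell into 7 clusters of at least 5, numbered here along the chromosome (hg38). Cluster 1 spans chr19:7069703-9793180 with 13 genes, cluster 2 chr19:11483427-12640098 with 25, and cluster 3 chr19:19668796-24129968 with 29. Cluster 4 spans chr19:36182276-37817300 with 27 genes, cluster 5 chr19:43596392-45076587 with 23, cluster 6 chr19:51571283-53580269 with 39 and cluster 7 chr19:55476617-58481230 with 57. All 231 are protein-coding in GENCODE. By a letter pattern, 196 of the encoded proteins matched KRAB and the median protein had 12 fingers, with up to 31 in ZNF91. The promoters are shown here because 2 of the clusters with many genes called higher with SFPQ siRNA, clusters 2 and 3, share letters there. Whether shared descent accounts for these letters was not tested. RefSeq (GRCh38.p14) held 205 of the 231 promoters. The commonest run of 10 bases among the 250 before their starts, with both strands searched, was TCCAATCAGG, which holds a CCAAT box, the site of the factor NF-Y. It occurred in 40 of the 205 (19.5%), against 0.385% of all 27305 promoters in the table and 5.56% of those of ZNF genes on other chromosomes. All but 2 of the 40 belonged to cluster 3, where 24 of 26 promoters had it, or cluster 2, with 14 of 24. None in clusters 1, 4, 5, 6 or 7 did. The commonest run without 5 bases in common with it was GGCGGGGCCT, a GC-rich box, in 37 of the 205 (18%) against 2.98% of all promoters, with 12 of 26 in cluster 3, 16 of 32 in cluster 6 and none in clusters 4, 5 and 7. In cluster 6 all 16 had it on the strand opposite to the gene. Both runs were picked after the promoters had been counted, and a match is a description only.

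In the promoters below, chosen after their values were seen because the deposited gene begins where the printed bases end, capitals mark either run on either strand. ZNF441 (chr19:11766750-11766999, plus strand) and ZNF878 (chr19:12052962-12053211, minus strand) are from cluster 2, as is ZNF44 (chr19:12294884-12295133, minus strand), which has neither run. ZNF486 (chr19:20166964-20167213, plus strand), ZNF91 (chr19:23395472-23395721, minus strand), ZNF492 (chr19:22634074-22634323, plus strand) and ZNF723 (chr19:22832041-22832290, plus strand) are from cluster 3, and ZNF841 (chr19:52095766-52096015, minus strand) is from cluster 6.
ZNF441: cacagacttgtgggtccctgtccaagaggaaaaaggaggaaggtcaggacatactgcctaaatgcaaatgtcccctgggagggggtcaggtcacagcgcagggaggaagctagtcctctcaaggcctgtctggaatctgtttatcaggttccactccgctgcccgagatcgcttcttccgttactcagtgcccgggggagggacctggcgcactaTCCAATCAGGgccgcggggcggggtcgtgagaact
ZNF878: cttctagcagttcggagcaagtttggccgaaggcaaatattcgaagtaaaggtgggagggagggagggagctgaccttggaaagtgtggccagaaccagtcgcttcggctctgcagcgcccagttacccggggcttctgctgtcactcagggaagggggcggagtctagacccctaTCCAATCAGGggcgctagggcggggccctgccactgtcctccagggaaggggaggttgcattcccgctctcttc
ZNF44: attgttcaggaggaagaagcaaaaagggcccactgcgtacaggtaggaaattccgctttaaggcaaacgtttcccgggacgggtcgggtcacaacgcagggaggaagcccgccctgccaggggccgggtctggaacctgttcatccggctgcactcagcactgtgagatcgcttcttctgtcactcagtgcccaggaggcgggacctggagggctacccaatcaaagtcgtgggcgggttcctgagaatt
ZNF486: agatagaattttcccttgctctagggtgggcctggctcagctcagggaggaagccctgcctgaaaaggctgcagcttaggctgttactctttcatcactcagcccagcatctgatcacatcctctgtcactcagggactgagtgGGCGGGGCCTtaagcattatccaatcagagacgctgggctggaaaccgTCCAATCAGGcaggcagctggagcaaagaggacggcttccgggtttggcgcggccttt
ZNF91: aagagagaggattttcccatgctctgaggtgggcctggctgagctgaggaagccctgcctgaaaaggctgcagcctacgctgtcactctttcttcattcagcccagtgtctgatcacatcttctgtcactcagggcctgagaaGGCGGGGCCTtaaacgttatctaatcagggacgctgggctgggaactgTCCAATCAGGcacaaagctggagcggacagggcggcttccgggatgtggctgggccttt
ZNF492: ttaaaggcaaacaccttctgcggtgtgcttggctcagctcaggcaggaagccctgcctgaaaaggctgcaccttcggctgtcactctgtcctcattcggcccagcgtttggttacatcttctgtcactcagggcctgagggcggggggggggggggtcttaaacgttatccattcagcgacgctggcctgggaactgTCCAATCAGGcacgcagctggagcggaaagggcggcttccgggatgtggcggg
ZNF723: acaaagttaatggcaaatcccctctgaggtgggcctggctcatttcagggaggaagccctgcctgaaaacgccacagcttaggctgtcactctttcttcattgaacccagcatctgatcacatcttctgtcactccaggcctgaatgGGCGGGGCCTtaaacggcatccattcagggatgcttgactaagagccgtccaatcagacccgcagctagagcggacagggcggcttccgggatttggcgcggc
ZNF841: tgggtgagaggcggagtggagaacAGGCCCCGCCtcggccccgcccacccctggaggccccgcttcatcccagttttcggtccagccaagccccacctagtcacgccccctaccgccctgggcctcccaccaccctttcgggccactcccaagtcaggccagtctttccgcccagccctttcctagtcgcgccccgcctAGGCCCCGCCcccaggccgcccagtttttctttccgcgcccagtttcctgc
The run with the CCAAT box began 35 bases before the start in ZNF441, 74 in ZNF878, 58 in ZNF486, 59 in ZNF91 and 53 in ZNF492. With SFPQ siRNA the first 4 rose, by log2 fold changes of 0.43, 0.98, 0.92 and 0.60, and ZNF492 fell by 0.97. For ZNF492 siSFPQ-2 minus siSFPQ-3 was -1.01 (edgeR, adjusted p = 0.00674), and its fall was not called with siSFPQ-3 alone. ZNF44, without the run with the CCAAT box, rose by 0.90, and ZNF723, also without it, fell. Over all members with a promoter, 21 of the 40 with the run were called higher (52.5%) and 3 lower (7.5%), with a median of 0.385. Of the 165 without, 43 were higher (26.1%) and 39 lower (23.6%), with a median of 0.032. Over all genes tested the shares were 32.2% and 33.2%. Because the run lies almost only in clusters 2 and 3, this split is nearly one by cluster. In cluster 6, where no promoter had the run, 16 of 32 were higher and 6 lower (median 0.337). In cluster 3, 12 of the 24 with it were higher and 3 lower, and of the 2 without it 1 was higher and 1 lower. In cluster 2, 9 of the 14 genes with the run were called higher and none lower, against 4 higher and 1 lower of the 10 without.

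The levels were moderate. The median member stood at 19.5 CPM over all libraries, against 9.1 CPM over all genes tested. Per kilobase of exonic length, the highest in siCtrl was ZNF146, a protein made of fingers without KRAB, at 62.0 CPM per kb. ZNF121 followed at 20.5, ZNF260 at 16.7, ZNF253 at 15.3, ZNF708 at 13.3, ZNF43 at 11.6, ZNF480 at 11.5 and ZNF428 at 10.7 CPM per kb. In sum the 231 genes took 5733 ± 195 CPM in siCtrl (SD, n = 3), 6235 ± 218 under siSFPQ-2 and 6738 ± 138 under siSFPQ-3. Libraries of siSFPQ-2, from 5985 to 6386 CPM, and of siSFPQ-3, from 6600 to 6876, all lay above the siCtrl libraries, from 5510 to 5872. The sums were 5772 ± 113 with siNONO-3, 5871 ± 96.4 with siNONO-4, 5807 ± 46.5 with ASO-Ctrl, 5686 ± 323 with ASO-NEAT1-1047 and 5945 ± 304 with ASO-NEAT1-1473, which overlap. Of 216 members at 1 CPM or more in every group, 46 differed at least 2-fold between their highest and lowest group mean. Without the siSFPQ groups that number was 2. The same counts were not made over all genes, so they do not mark a trait of these genes.

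**Figure D1:**
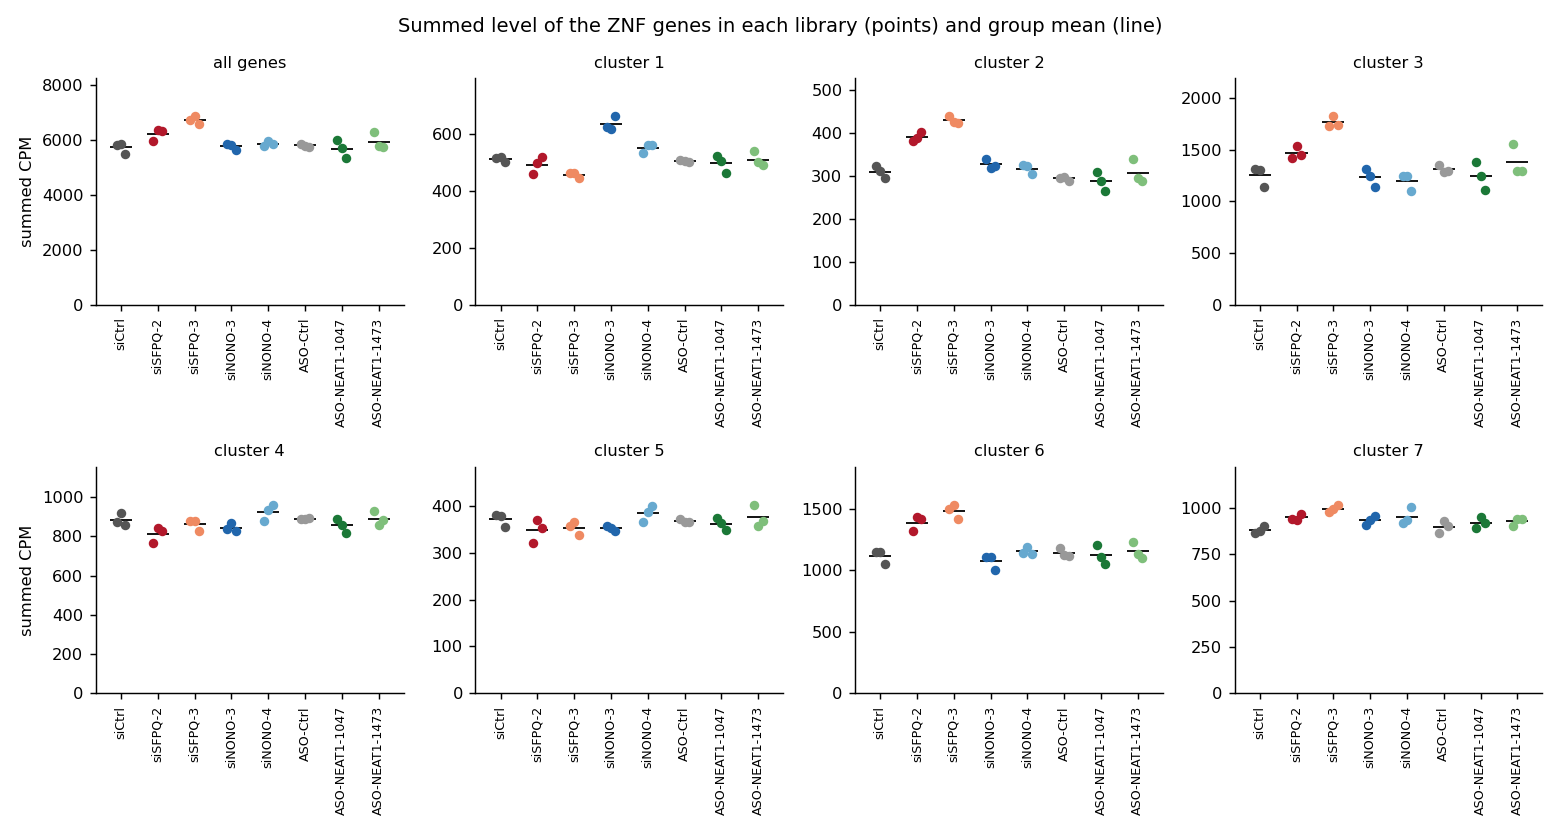
Summed CPM of the ZNF genes (vertical axis, from 0) in each library (points) of the 8 groups (horizontal axis), for all 231 genes and for each cluster, with a line at the group mean. In clusters 2, 3, 6 and 7 every siSFPQ library lies above every siCtrl library, while in clusters 1 and 7 every siNONO library does.

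The response of the ZNF genes to SFPQ knockdown is given by cluster, in bulk RNA where fewer expressing cells and less RNA per cell cannot be told apart. Of the 93 genes in clusters 2, 3 and 6, 50 were called higher and 13 lower. The largest rises, of ZNF491, ZNF709, ZNF763, ZNF564 and ZNF433, were all in cluster 2. ZNF723, ZNF428, ZNF599 and ZNF331 fell most among the genes called with both siRNAs. In the fit across all genes (edgeR's quasi-likelihood test, Benjamini-Hochberg adjusted p under 0.05, here "called"), 77 of 231 members (33.3%) were higher and 46 (19.9%) lower. Over all genes 32.2% were called higher and 33.2% lower, so the share called higher was near the background and the share called lower was below it. Among the 61 members that overlap no other gene, however, the share called lower was 31.1%, near that background. The median log2 fold change was 0.09 for the members and -0.02 for all genes. The middle of the members' distribution was also narrower, from -0.24 to 0.52 between the quartiles, against -0.68 to 0.73. Changes of 2-fold or more were called in 17 members (7.36%), against 33.2% of all genes. Called in the mean and with both siRNAs in 1 direction were 59 members higher (25.5%, background 25.6%) and 27 lower (11.7%, background 24.5%).

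Of the 241 ZNF genes on other chromosomes, chosen by the same rule and filter, 67 were called higher and 81 lower, with a median of -0.05. Their quartiles were -0.44 and 0.36, so a middle narrower than that of all genes was not particular to the members. The share that changed 2-fold or more was not counted for this set. Of 978 other chromosome 19 genes, 265 were higher and 302 lower (median -0.02), and of 10 ZFP, ZSCAN and ZIM genes there 2 and 4. Among the 196 members with a KRAB match 74 were higher and 38 lower, and among the 35 without it 3 and 8. On other chromosomes the 100 ZNF genes with a KRAB match had 29 higher and 32 lower. These are counts side by side, and no difference between the sets was tested.

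Transcripts of members are poor in G and C, with a median of 42.3% against 47.3% over all genes tested, and the SFPQ effect varied with this. All genes under 38% GC had a median log2 fold change of 0.14, and those at 46% or more -0.10. With a GC trend removed, 73 members were called higher and 60 lower, against 77 and 46 without that step. The shares of all genes called in the GC-adjusted fit are not given here. Whether the share of members called lower stayed below the background there was not tested. In the main fit, under 38% GC, 16.1% of members were called lower, against 28.1% of all genes of that GC. From 38 to 42% GC the shares were 24.1% and 30.3%, and from 42 to 46% they were 15.2% and 33.3%. At 46% or more they were 21.8% and 35.3%. No difference within a band was tested. Many loci are shared. As many as 170 members overlap another gene and 135 share exonic bases with one, and neither the sharing of such reads nor the use of strand in the counting is given in the sources used here. The members are also close copies of each other, so reads that fit several copies are a further uncertainty. Of the 61 members that overlap no gene 15 were called higher and 19 lower (median 0.01), and of the 96 that share no exonic bases 31 and 24 (median 0.07). Whether read sharing has a part in the counts was not tested.

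**Figure D2:**
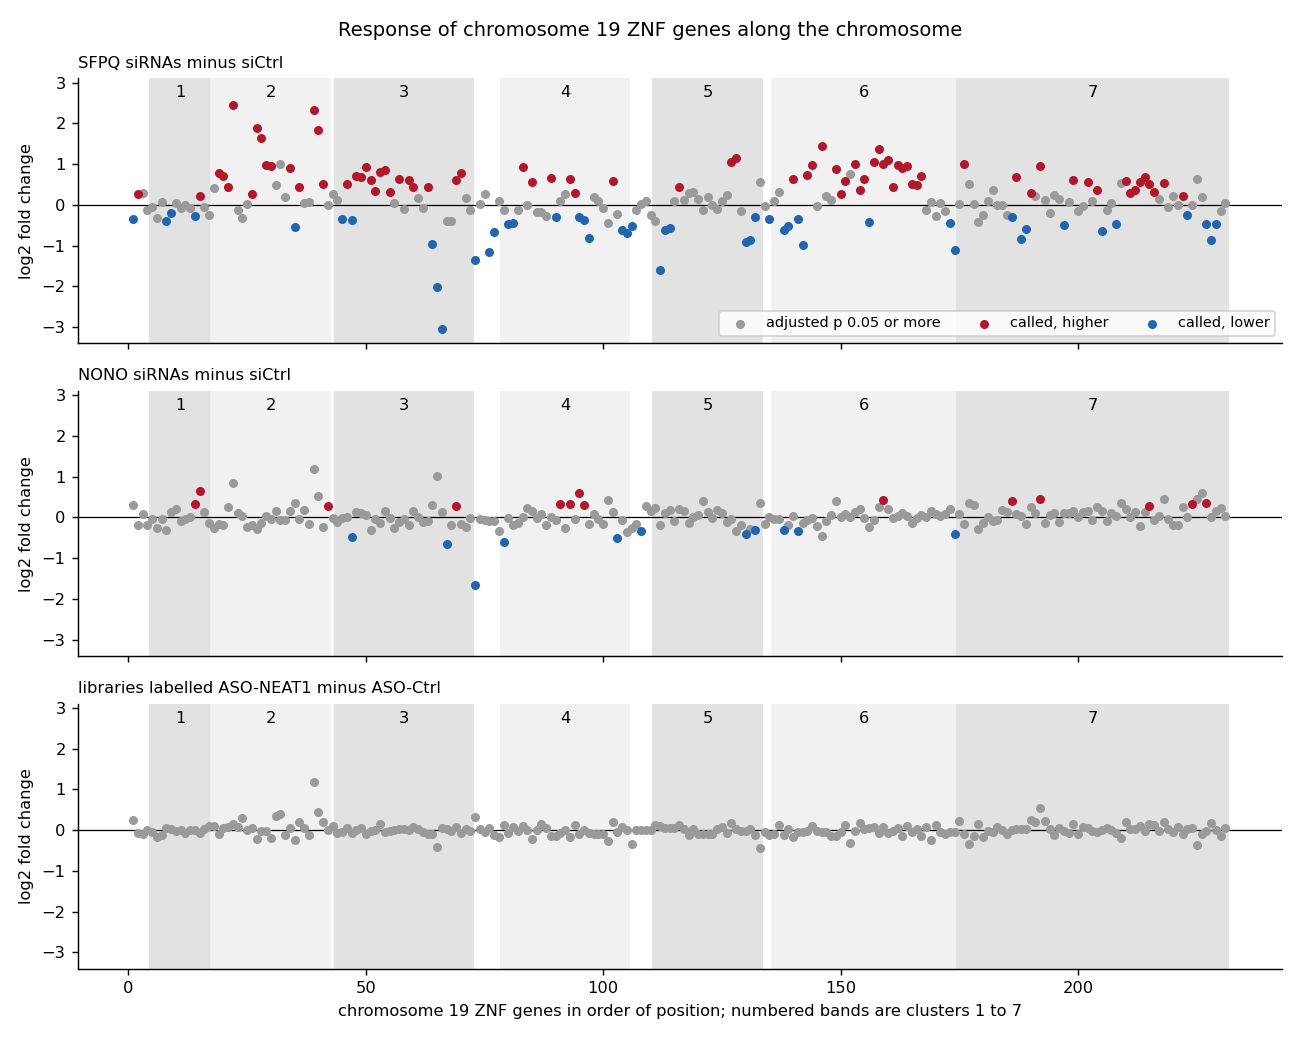
Log2 fold change (vertical axis) of the 231 ZNF genes in order along chromosome 19 (horizontal axis), for SFPQ, NONO and the ASO-NEAT1 libraries against their controls, with grey bands for clusters 1 to 7. Red points are called higher and blue points called lower, and with SFPQ siRNA red points gather in clusters 2, 3 and 6.

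Cluster 2 had 14 of 25 genes called higher and 1 lower after SFPQ knockdown, with a median log2 fold change of 0.485. Cluster 3 had 15 of 29 higher and 5 lower (median 0.305), and cluster 6 had 21 of 39 higher and 7 lower (median 0.429). Cluster 4 went 6 higher and 8 lower of 27 (median -0.13), and cluster 5 went 3 and 6 of 23 (median 0.08). Cluster 1 had 1 higher and 3 lower of 13 (median -0.07), and cluster 7 had 16 and 10 of 57 (median 0.10). Clusters 2, 3 and 6, grouped after their values were seen, thus held 50 of the 77 genes called higher, with 13 lower, and the other 138 members 27 higher and 33 lower. Among the 41 genes of clusters 2, 3 and 6 that share no exonic bases, 21 were higher and 8 lower. Among the 21 that overlap no gene, 7 were higher and 6 lower, which is about even.

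Genes of other kinds inside the same windows did not all move alike. In the cluster 6 window 9 of 19 other genes were called higher and 2 lower (median 0.49). In the cluster 2 window 4 of 14 were higher and 2 lower (median 0.37), and in the cluster 3 window 3 of 21 were higher and 8 lower (median 0.01). Log2 fold changes of neighbouring members correlated with r = 0.438 over 215 pairs not more than 1 Mb apart, given as a description. The same r was 0.204 for NONO and 0.14 for the ASO-NEAT1 libraries. Neighbours share libraries, GC content, sequence and in part exonic bases.

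**Figure D3:**
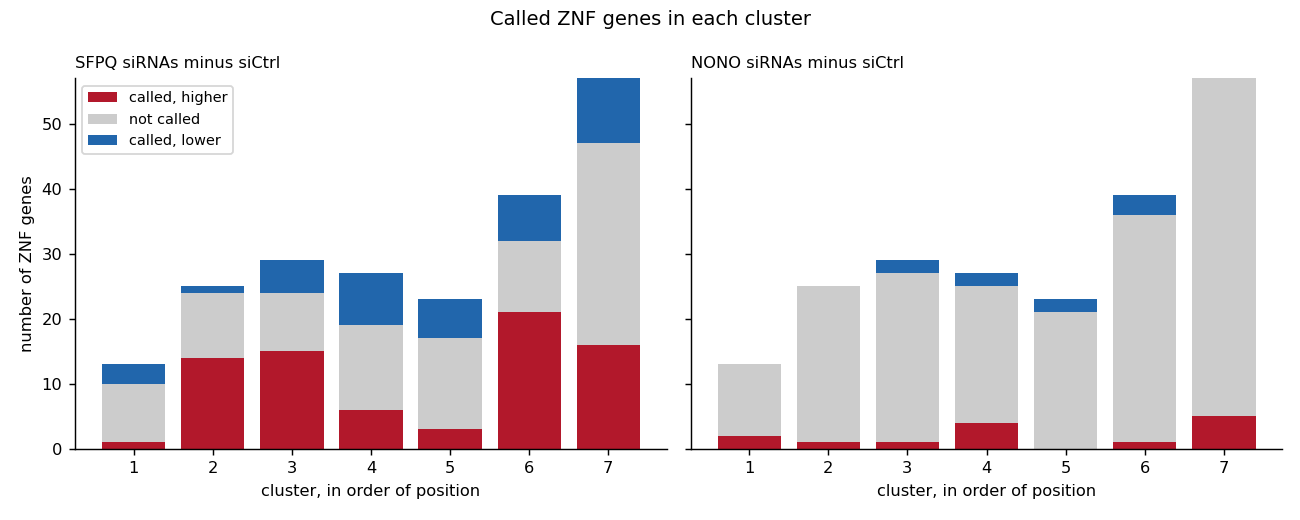
Number of ZNF genes (vertical axis, from 0) in clusters 1 to 7 (horizontal axis) called higher (red), called lower (blue) or not called (grey) with SFPQ siRNA, left, and NONO siRNA, right. Clusters 2, 3 and 6 hold 14, 15 and 21 genes called higher with SFPQ siRNA and 1 each with NONO siRNA.

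The leading genes of cluster 2 were low in the control. ZNF491 (chr19:11797667-11809622, overlapping an antisense gene) measured 0.541, 0.62 and 1.01 CPM in siCtrl, 3.17, 4.56 and 4.04 with siSFPQ-2 and 3.56, 4.23 and 5.21 with siSFPQ-3. Every siSFPQ library was above every siCtrl library, a rise of 2.44 in log2 units (SE 0.31, adjusted p = 4.48e-08). ZNF709, at 0.0902, 0.723 and 0.145 CPM in siCtrl and 0.948 to 2.18 in the 6 siSFPQ libraries, rose by 2.34 (SE 0.50, adjusted p = 0.00014). ZNF763 rose by 1.88 (SE 0.30, adjusted p = 2.89e-06), from 0.631, 1.03 and 0.87 CPM to between 1.77 and 4.47. ZNF564 rose by 1.84 (SE 0.30, adjusted p = 2.86e-06), from 0.992, 0.62 and 0.87 CPM to between 2.73 and 3.63. The last 3 share exonic bases with other protein-coding genes on their own strand, none of which passed the filter.

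ZNF433 (chr19:12014716-12035741), a KRAB protein gene with 18 fingers, was the highest of the 5. It measured 6.32, 6.82 and 6.96 CPM in siCtrl, 18.6, 19.4 and 22.3 with siSFPQ-2 and 21.6, 19.9 and 24.3 with siSFPQ-3. These groups did not overlap, and it rose by 1.65 (SE 0.16, adjusted p = 1.6e-10). It shares bases with its antisense gene ZNF433-AS1, so reads of the 2 could be mixed if the counting ignored strand.

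In cluster 6 the largest rises came from ZNF836, ZNF600, ZNF468 and ZNF611. ZNF836, with 24 fingers, measured 6.59, 7.03 and 7.03 CPM in siCtrl, 15.8, 20.4 and 21.1 with siSFPQ-2 and 19.9, 18.4 and 16.8 with siSFPQ-3. It rose by 1.44 (SE 0.16, adjusted p = 1.81e-09). ZNF600 (chr19:52749942-52786807), which overlaps no gene, measured 13.1, 12.2 and 11.1 CPM in siCtrl and 27.0 to 37.5 in the 6 siSFPQ libraries. It rose by 1.37 (SE 0.15, adjusted p = 5.4e-09). ZNF611 (chr19:52702813-52735073), also free of overlap, rose by 1.06 (SE 0.10, adjusted p = 1.16e-10), from 21.1, 22.0 and 20.6 CPM to 35.7, 39.1 and 38.5 with siSFPQ-2 and 52.2, 53.7 and 49.9 with siSFPQ-3. ZNF468 rose by 1.11 (SE 0.10, adjusted p = 3.67e-11), from 44.5, 45.6 and 34.6 CPM to between 80.9 and 97.7, and shares exonic bases with ZNF28 on the same strand, which rose by 0.99. ZNF233 in cluster 5 rose by 1.145 (SE 0.26, adjusted p = 0.00031), from 1.16 to 2.17 CPM in siCtrl to 2.78 to 4.51, and overlaps ZNF235.

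Cluster 3 holds ZNF91 and ZNF93, whose proteins are known to silence SVA and LINE-1 retrotransposons. ZNF91 (chr19:23304991-23395471) measured 99.3, 100.6 and 100.5 CPM in siCtrl, 139.8, 153.4 and 173.9 with siSFPQ-2 and 140.1, 159 and 143.7 with siSFPQ-3. All siSFPQ libraries were higher, by 0.60 in log2 units (SE 0.08, adjusted p = 5e-08). ZNF93 measured 50.7, 58.8 and 50.9 CPM in siCtrl, and 32.0, 35.3 and 30.2 with siSFPQ-2 but 54.4, 52.2 and 53.4 with siSFPQ-3. It was called lower in the mean (-0.37, SE 0.10, adjusted p = 0.00207), by siSFPQ-2 alone. ZNF723, in the same cluster, was at 1.44, 2.69 and 3.33 CPM in siCtrl, 0.506, 1.2 and 0.622 with siSFPQ-2, and 0.119, 0.242 and 0 with siSFPQ-3. It fell by 3.04 (SE 0.49, adjusted p = 3.51e-06), the largest fall among the members. ZNF274 in cluster 7, a protein known to guide SETDB1 to the 3′ ends of zinc finger genes, rose by 0.22 (SE 0.09, adjusted p = 0.0371), from 35.6, 37.7 and 43.5 CPM to between 41.9 and 49.0. Its call was lost without siCtrl replicate 1 or 2, siSFPQ-2 replicate 2 or 3, or siSFPQ-3 replicate 1 or 2, with adjusted p between 0.0536 and 0.195.

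Other falls were spread over clusters and single genes. ZNF428 in cluster 5, with 1 finger and no KRAB match, fell by 1.59 (SE 0.17, adjusted p = 1.02e-09), from 18.1, 16.7 and 14.8 CPM in siCtrl to between 3.26 and 8.4, and shares exonic bases with SRRM5 on the other strand. ZNF599, outside the clusters and free of overlap, fell by 1.17 (SE 0.16, adjusted p = 1.31e-07), from 7.49, 7.65 and 8.04 CPM to between 2.61 and 4.18. ZNF331 (chr19:53519527-53580269), an imprinted gene, measured 38.3, 37.4 and 35.5 CPM in siCtrl, 15.4, 15.6 and 12.1 with siSFPQ-2 and 20.8, 21.8 and 20.6 with siSFPQ-3, and fell by 1.1 (SE 0.10, adjusted p = 6.29e-11). ZNF614, in cluster 6 as well, fell by 0.98 (SE 0.08, adjusted p = 3.63e-12), from 51.6, 55.6 and 53.5 CPM to between 21.7 and 33.4. All siSFPQ libraries of these 4 genes lay below all siCtrl libraries. ZNF285, ZNF229, ZNF470, ZNF527 and ZNF573 fell by between 0.69 and 0.91. Of the genes with the highest levels, ZNF146 fell by 0.46 (adjusted p = 1.71e-06) and ZNF121 by 0.27 (adjusted p = 0.00259), while ZNF253 rose by 0.51 (adjusted p = 1.87e-05) and ZNF43 by 0.44 (adjusted p = 3.17e-05). ZNF260, ZNF708 and ZNF480 had log2 fold changes of -0.13, -0.10 and 0.11, which were not called.

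**Figure D4:**
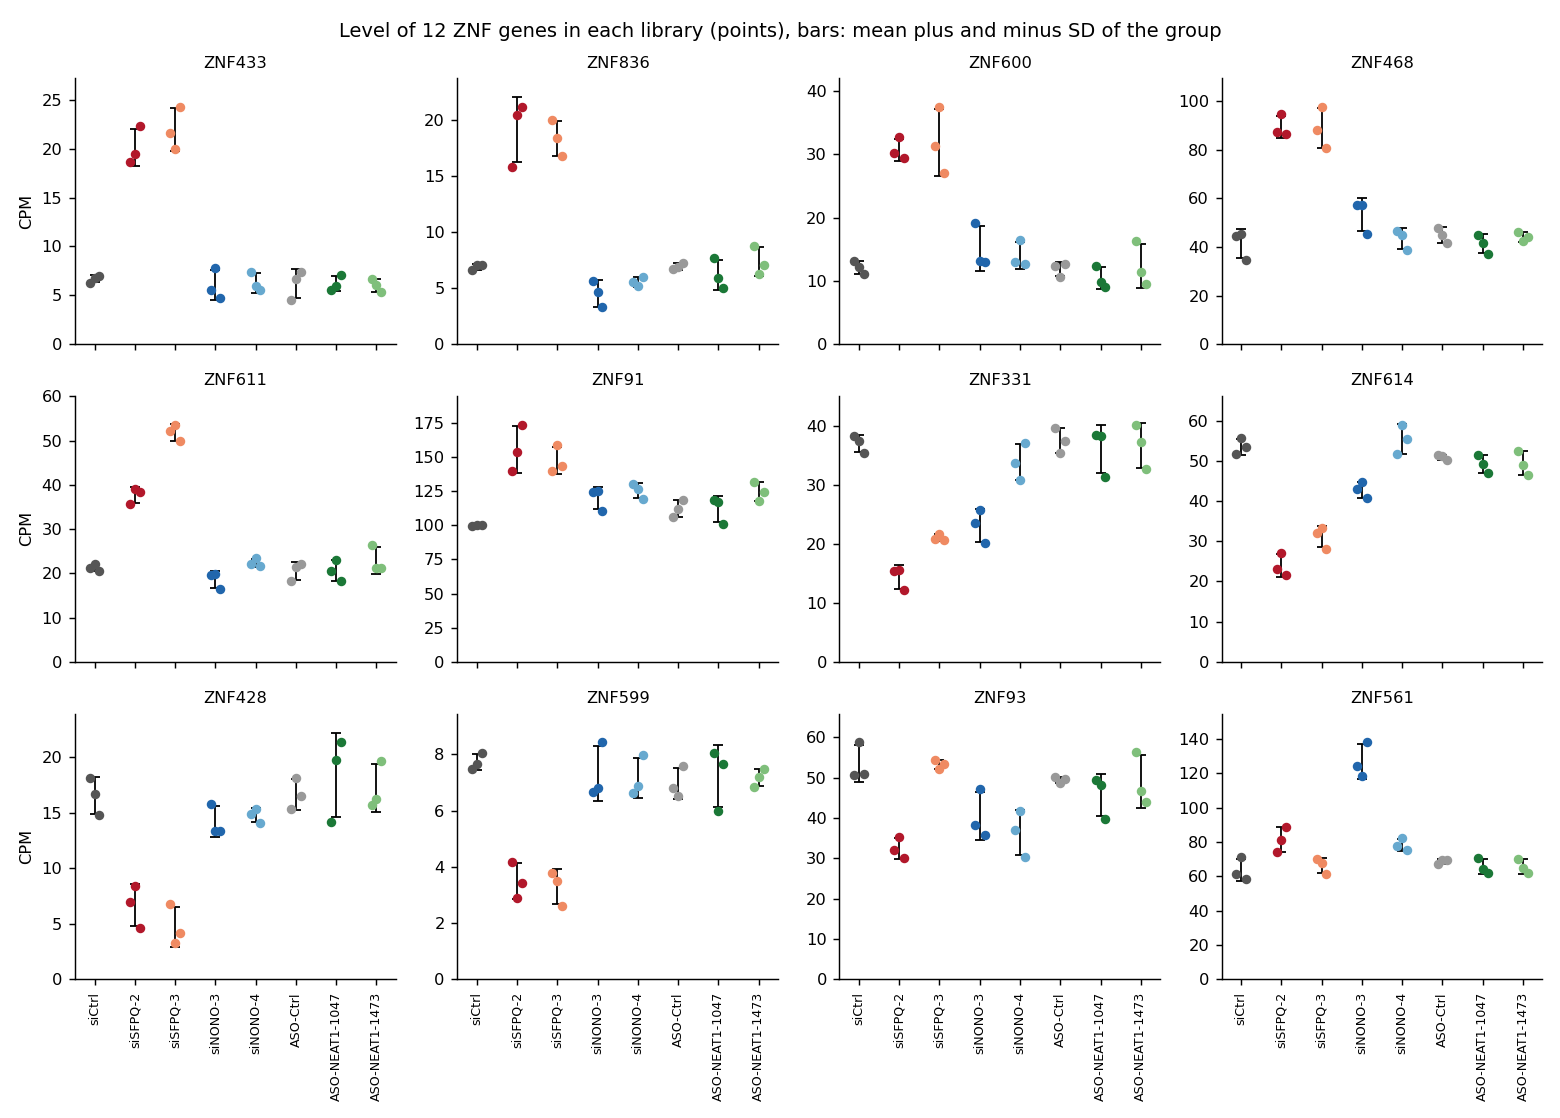
CPM (vertical axes, from 0) of 12 ZNF genes in each of the 24 libraries (points) by group (horizontal axis), with bars that reach 1 SD to either side of the mean of 3 libraries. ZNF433, ZNF836, ZNF600 and ZNF468 stand highest in both siSFPQ groups, ZNF331 is lowest with siSFPQ-2, and ZNF561 is highest with siNONO-3.

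Between siSFPQ-2 and siSFPQ-3, 8 members were called higher and 33 lower with siSFPQ-2, against 4.76% and 7.15% of all genes. Of these 41 genes 13 lay in cluster 3, where none was higher and 13 of 29 were lower with siSFPQ-2, among them ZNF43, ZNF93, ZNF90, ZNF100 and ZNF486. The cluster's median log2 fold change against siCtrl was 0.18 with siSFPQ-2 (13 called higher, 8 lower) and 0.39 with siSFPQ-3 (16 higher, 1 lower). In clusters 2 and 6 the siRNAs gave 11 and 14, and 19 and 22 genes called higher. ZNF850 in cluster 4, named after its values were seen, was the 1 member called in opposite directions, at 30.2 CPM in siCtrl, 16.4 with siSFPQ-2 and 44.8 with siSFPQ-3.

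With NONO siRNA, of 231 members 14 were called higher and 11 lower, against a background of 6.06% and 8.67%, and the median was 0.01, against -0.01 over all genes. The NONO groups paired by replicate number, and with that number as a block 20 were called higher and 20 lower (17.3% in all, against 24.8% of all genes). Called in the mean and with both siRNAs were 5 higher, namely ZNF561, ZNF383, ZNF667, ZNF121 and ZNF91, and 1 lower, ZNF93, against 2.29% and 2.61% of all genes. The 1 change of 2-fold or more was that of ZNF536, outside the clusters and named after its values were seen, which fell by 1.66 (SE 0.40, adjusted p = 0.00465). It measured 1.26, 1.76 and 1.377 CPM in siCtrl, 0.295, 0.213 and 0.187 with siNONO-3 and 1.33, 0.323 and 0.919 with siNONO-4, which overlaps siCtrl and was not called alone (adjusted p = 0.324). The counts were small enough to turn on single libraries. Fits without 1 library of siCtrl, without siNONO-3 replicate 2 or 3, or without siNONO-4 replicate 3 gave 8 or 9 called higher. Fits without siCtrl replicate 1 or 2 or siNONO-3 replicate 3 gave 4, 5 and 6 called lower.

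ZNF561 (chr19:9604680-9621236), in cluster 1 and free of overlap, measured 61.4, 71.2 and 58.5 CPM in siCtrl, 123.9, 118.4 and 138.1 with siNONO-3 and 77.4, 82.3 and 75.2 with siNONO-4. It rose by 0.65 (SE 0.08, adjusted p = 9.7e-07), and siNONO-3 exceeded siNONO-4 by 0.70 (adjusted p = 3.51e-06). ZNF383 rose by 0.61 (SE 0.10, adjusted p = 8.38e-05), from 14.1, 14.8 and 15.3 CPM to between 20.5 and 25.5. ZNF667 rose by 0.41 (SE 0.08, adjusted p = 0.000849), from 34.6, 38.2 and 35.4 CPM to between 43.7 and 53.3. ZNF383 and ZNF667 share exonic bases with genes on the other strand, ZNF585B and ZNF667-AS1. ZNF121 rose by 0.33 (SE 0.08, adjusted p = 0.00368), from 153.4, 146.2 and 145.4 CPM to between 178.6 and 193. ZNF91 rose by 0.29 (SE 0.07, adjusted p = 0.00713), to between 110.8 and 130.5 CPM. ZNF93 fell by 0.48 (SE 0.10, adjusted p = 0.000964), to 38.3, 47.1 and 35.9 CPM with siNONO-3 and 37.0, 41.6 and 30.4 with siNONO-4. The NONO libraries of these 6 genes all lay outside the range of siCtrl. Cluster 1 as a sum stood at 513 ± 9.2 CPM in siCtrl, 635 ± 25 with siNONO-3 and 553 ± 16.8 with siNONO-4, and ZNF561 and ZNF121 both belong to it. Between the NONO siRNAs 5 members were called higher and 15 lower with siNONO-3, against 3.78% and 4.28% of all genes.

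SFPQ and NONO knockdown share the siCtrl libraries, so their difference was tested directly. It was called in 146 members, with 89 higher (38.5%, background 35.1%) and 57 lower (24.7%, background 35.6%) with SFPQ siRNA. Clusters 2, 3 and 6 gave 16 of 25, 19 of 29 and 22 of 39 higher, and 3, 4 and 8 lower. The largest differences upward were those of ZNF763 (2.16, SE 0.26, adjusted p = 8.94e-09), ZNF836 (1.90, SE 0.13, adjusted p = 4.35e-14) and ZNF433 (1.77, SE 0.13, adjusted p = 1.45e-13). Downward they were those of ZNF723 (-3.17, SE 0.44, adjusted p = 2.12e-07), ZNF99 (-3.05, SE 0.59, adjusted p = 6.59e-05) and ZNF428 (-1.40, SE 0.15, adjusted p = 7.41e-10). ZNF99, with means of 0.915 CPM in siCtrl, 0.104 under siSFPQ-2 and 0.357 under siSFPQ-3, lost its own SFPQ call without siCtrl replicate 3 (adjusted p = 0.142) or siSFPQ-2 replicate 1 (adjusted p = 0.0523). Side by side, ZNF121 had log2 fold changes of -0.27 with SFPQ and 0.33 with NONO siRNA, ZNF667 of -0.29 and 0.41, and ZNF383 of -0.30 and 0.61, and each difference was called (adjusted p = 9.44e-10, 2.46e-10 and 1.04e-10). The SFPQ call of ZNF383 itself was lost without siCtrl replicate 3 (adjusted p = 0.0633). For ZNF93 the difference was 0.12 (adjusted p = 0.23). Of the 61 members without overlap 15 were higher and 20 lower in this comparison, with a median of -0.03 against 0.11 for all members.

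In the libraries labelled ASO-NEAT1, edgeR called no member and 0.0% of all genes, and DESeq2 called no member either. At an unadjusted p under 0.05 there were 5 members, against 2.46% of all genes. The member with the smallest p, ZNF460 in cluster 7, differed by 0.55 in log2 units (SE 0.15, adjusted p = 1). Its libraries measured 13.1, 19.9 and 21.5 CPM in ASO-Ctrl, 21.9, 27.1 and 25.8 with ASO-NEAT1-1047 and 30.1, 27.4 and 27.6 with ASO-NEAT1-1473. The 95% interval of the log2 fold change reached 0.23 to either side for the median member, and for 220 of 231 members it lay within 1 of zero. Between ASO-Ctrl and siCtrl no member was called, against 0.385% of all genes.

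A list of 40 genes tied to silencing by KRAB proteins, called partners here, was set, and 39 of them were tested. It also holds enzymes that remove marks, such as the demethylases KDM4B and KDM4C and the SUMO protease SENP7. Its counts therefore mix factors of different kinds. With SFPQ siRNA 10 rose (25.6%) and 16 fell (41.0%), against 32.2% and 33.2% of all genes, with a median of -0.12. ATRX, a chromatin remodeller that loads the histone variant H3.3 with DAXX, stood at 546 ± 8.47 CPM in siCtrl, 136.5 ± 15 after siSFPQ-2 and 135.6 ± 3.45 after siSFPQ-3, and fell by 2.01 (SE 0.08, adjusted p = 9.43e-20). SUV39H1, a histone H3 lysine 9 methyltransferase, fell by 1.27 (adjusted p = 5.6e-08), and KDM4C, a demethylase of that mark, by 1.18 (adjusted p = 6.89e-09). TRIM28 itself, at 172.7 ± 12.7 CPM in siCtrl, fell by 0.22 (SE 0.09, adjusted p = 0.0379; not called with siSFPQ-3 alone), and SETDB1 had a log2 fold change of 0.03 (adjusted p = 0.778). Among the risen was ATF7IP2, with 1 read in siCtrl and 35 under siSFPQ, pooled over libraries. That is 25.5-fold relative to total counts, with an exact 95% counting interval of 4.29 to 1040, which leaves out the spread between libraries. ATF7IP2 passed the filter through the siSFPQ libraries alone, so the filter favoured its place among the 10 that rose. DNMT3B, a DNA methyltransferase, rose by 1.07 (adjusted p = 3.48e-06). DNMT3B was at 6.55 CPM in siCtrl, 8.02 with siSFPQ-2 and 24.1 with siSFPQ-3, and was not called with siSFPQ-2 alone. SENP7, a SUMO protease, rose by 0.90 (adjusted p = 1.6e-07).

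With NONO siRNA 3 partners rose (7.69%) and 4 fell (10.3%), with a median of -0.09, and these shares are near the 6.06% and 8.67% of all genes. ATF7IP, a cofactor of SETDB1, rose by 0.56 (adjusted p = 0.0407), the demethylase KDM4B by 0.51 (adjusted p = 0.000951) and MORC3 by 0.28 (adjusted p = 0.0172). SENP7 fell by 0.36 (adjusted p = 0.0363), the DNA methyltransferase DNMT3A by 0.31 (adjusted p = 0.0407) and the histone-binding protein RBBP7 by 0.30 (adjusted p = 0.0104). With siNONO-4 alone ATF7IP, SENP7, DNMT3A and RBBP7 were not called (adjusted p = 0.227, 0.282, 0.528 and 0.596), and with siNONO-3 alone MORC3 was not (adjusted p = 0.0524). In the libraries labelled ASO-NEAT1 none of the 39 was called.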

How the data were processed

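Poly(A) RNA of 24 libraries was analysed. The deposited values are raw counts for each gene, as whole numbers. They came from featureCounts 2.0.3 per the file headers. Cutadapt 4.2, STAR 2.7.5a, Subread 2.0.3, DESeq2 1.38.1 and build hg38 are listed per the submitters' processing notes. The handling of strand and of multi-mapping reads was not given in the sources used here, so overlapping or near-identical genes are uncertain.

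Genes that reached 0.5 CPM in 3 libraries were tested with edgeR 4.0.16 (quasi-likelihood, robust, TMM) in R 4.3.3, over all 24 libraries in 1 fit, and p-values were adjusted over 18451 genes. Effects average both reagents of a target and subtract the matching control (siCtrl or ASO-Ctrl). CPM values are TMM-scaled. DESeq2 1.42.0 was an alternative. In simulated counts of 18451 genes for the NONO comparison, 92 of 100 genes changed by a log2 fold of 1 were called, 47 of 100 at 0.585, and 4 unchanged genes. The simulation gave every gene the same spread, changed only genes with a mean over 1 CPM and held no pairing by replicate number. It checks that the fit runs as intended and does not give the power or error rate in the real libraries.

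Symbols were matched for 60463 genes. GC content, fingers and KRAB letters come from GENCODE release 29, which gives 99.2% of genes ends within 50 kb of the deposited ones. Replicate numbers paired libraries in the NONO comparison, where all 9 same-numbered pairs correlated between 0.321 and 0.569 in their deviations from group means, and in the NEAT1 comparison (9 of 9, 0.344 to 0.662). In the SFPQ comparison pairing was weaker and uneven, with 6 of 9 pairs over 0.1 and all 9 between 0.014 and 0.467.

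Named were, per target, the 10 largest rises and 10 largest falls among members called in the mean and with both reagents, with a mean of 1 CPM in a group; the 3 largest differences each way between SFPQ and NONO; the 8 highest per kb; ZNF91, ZNF93 and ZNF274; and up to 3 partners each way. Members and lists were chosen with earlier results of these data known.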

Additional observations from a re-analysis of the deposited data

Results flagged for a closer look

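The siRNAs against 1 target gave different effects in several of the named genes, by a test of the difference itself (edgeR, adjusted over all genes). With siSFPQ-2 compared with siSFPQ-3 the log2 difference was -0.57 for ZNF331 (adjusted p = 0.00367), -0.40 for ZNF614 (adjusted p = 0.00708), -0.46 for ZNF611 (adjusted p = 0.00448), -0.73 for ZNF93 (adjusted p = 0.000105), -0.34 for ZNF253 (adjusted p = 0.0324) and -0.51 for ZNF43 (adjusted p = 0.000342). It was 0.70 for ZNF285 (adjusted p = 0.0178) and 0.30 for ZNF561 (adjusted p = 0.0317). With siNONO-3 compared with siNONO-4 it was -0.55 for ZNF331 (adjusted p = 0.00198), -0.37 for ZNF614 (adjusted p = 0.00725), -0.47 for ZNF527 (adjusted p = 0.0159) and 0.70 for ZNF561 (adjusted p = 3.51e-06). ZNF331, ZNF614 and ZNF561 stand in both lists.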

How the results depend on the processing

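Direction and counts were recomputed with other scaling factors, DESeq2, other filters, a replicate block, a GC trend, only the libraries compared, fewer members and 24 fits without 1 library each. The median of all genes moved by less than 0.1 (log2) with scaling. For SFPQ the count called higher ran from 71 to 79 without 1 library and the count called lower from 41 to 51, and the median from 0.065 to 0.132. It was 0.144 with RLE factors, 0.135 with upper quartile factors, 0.143 with DESeq2 and 0.008 in members without overlaps (15 higher, 19 lower). Members without exon overlap, an alternative chosen after seeing the data, gave 31 higher and 24 lower. The replicate block gave 90 higher and 50 lower for SFPQ, where numbers paired the libraries less evenly. Shares of all genes called for SFPQ in the block fit are not given here. The block did not change any of the other counts by over 1.5 times outside NONO. For NONO the counts ran from 8 to 15 higher and from 4 to 13 lower without 1 library, and the median from -0.021 to 0.031. The count called higher was 7 without a filter, 3 without overlaps and 7 without exon overlap. The counts called lower were 3 and 3 in these last sets. With upper quartile factors the median was 0.039. With the replicate block 20 were lower, and with the block and the GC trend removed 28 higher and 19 lower. For NEAT1 1 member was called higher without a filter, and none in the other fits. For SFPQ minus NONO the counts ran from 81 to 91 higher and 53 to 60 lower without 1 library, and the median from 0.086 to 0.134. Without overlaps there were 15 higher and 20 lower (median -0.029), and without exon overlap 33 and 26 (median 0.019). The median was 0.166 with RLE factors, 0.167 with DESeq2, 0.068 with the GC trend removed and 0.063 with the block as well. Fewer members were counted in the overlap sets. For the other moved values the cause was not tested.

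Of the 31 named members called with SFPQ siRNA 27 kept their call in every fit, and of 8 with NONO siRNA 7 did. The exceptions were ZNF561, ZNF383, ZNF99 and ZNF274 for SFPQ, and ZNF285 for NONO. With cluster gaps of 0.5 Mb cluster 3 split, into 20 genes with 13 higher and 2 lower and 9 genes with 2 higher and 3 lower. Clusters 1, 5 and 7 changed too, with cluster 7 split into 15 genes (2 higher, 3 lower) and 42 (14 and 7). With 2 Mb, clusters 1 and 2 joined (15 higher and 4 lower of 38), as did clusters 6 and 7 (37 higher and 18 lower of 98, median 0.142). Depth limits members near 1 CPM, such as ZNF709, ZNF99 and ZNF723, whose standard errors on the log2 scale reached 0.75.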
